A study of Mus musculus with 32 samples.

Results

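Oxidative phosphorylation (OXPHOS) was examined through the 77 nuclear genes of its machinery that were measured in the eosinophil lineage of the mouse. They were taken by symbol alone: Ndufa, Ndufb, Ndufc, Ndufs, Ndufv, Uqcr, Cox4, Cox5, Cox6, Cox7, Cox8 and Atp5 genes, the Sdh subunits, Cyc1 and Cycs. These 77 stand among 15187 genes named by a probe present on both array versions, and 70 of them encode subunits or cytochrome c while 7 are Ndufaf assembly factors. Complex I had 29 members, complex II 3, complex III 8, cytochrome c 1, complex IV 15 and complex V 14. A further 21 RefSeq symbols that fit the same names were not analysed here. Each gene was read from 1 probe, the one with the highest mean over all arrays, and 14 genes had several probes.

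The data are 32 Illumina MouseWG-6 arrays, each of RNA pooled from BALB/c mice aged 7 to 12 weeks. IL5T mice carry a transgene that expresses IL-5 constitutively under the CD2 promoter, which is active in T cells, and every IL5T group carries it. From these mice came 5 arrays of common myeloid progenitors (CMP), 5 of granulocyte-macrophage progenitors (GMP) and 3 of eosinophil progenitors (EoP), the GMP-like cells that bear IL-5Rα. The eosinophils of IL5T mice were sorted by Siglec-F into EoM (medium) from bone marrow (BM, 3 arrays), EoH (high) from BM (4 arrays) and EoH from peripheral blood (PB, 3 arrays). WT BALB/c mice without the transgene gave 3 arrays each of CMP, GMP and EoP. WT eosinophils were not analysed here, so the effect of IL-5 on mature eosinophils cannot be read from these arrays.

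Mitochondria make ATP by passing electrons along a chain of protein complexes. Complex I (NADH dehydrogenase) and complex II (succinate dehydrogenase, also an enzyme of the tricarboxylic acid cycle) feed electrons to ubiquinone. Complex III passes them to cytochrome c, and complex IV (cytochrome c oxidase) gives them to oxygen. Complexes I, III and IV pump protons, and complex V (ATP synthase) lets the protons flow back to make ATP. Most subunits are encoded in the nucleus.

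Nuclear OXPHOS genes are known to share promoter elements for NRF1, for GABP and other ETS factors, and for YY1. RefSeq promoter windows of GRCm38.p6, each of 300 bases from 250 before to 50 after the annotated start, were found for 62 of the 77 members. Searched on both strands, the letters GCGCATGC (NRF1) were in 16.1% of these 62 members, against 3.05% of all 27025 genes with a window. The letters CCGGAAG (GABP and other ETS factors) were in 25.8% of the members, against 9.93% of all genes, and AAGATGGC (YY1) in 16.1%, against 3.19%. A match is a description of the letters and not of a bound site. The windows shown are Cycs, Ndufs3 and Ndufs7, because each holds 1 of the 3 motifs, and Cox7a2 and Cox7a1, because these isoforms of 1 subunit moved in opposite directions and hold none of the 3. They lie at chr6:50566520-50566819 (Cycs, minus strand), chr2:90904672-90904971 (Ndufs3, minus), chr10:80249199-80249498 (Ndufs7, plus), chr9:79759804-79760103 (Cox7a2, minus) and chr7:30183921-30184220 (Cox7a1, plus). Sequences run 5′ to 3′ along the gene, and capitals mark the motif letters on either strand.
Cycs: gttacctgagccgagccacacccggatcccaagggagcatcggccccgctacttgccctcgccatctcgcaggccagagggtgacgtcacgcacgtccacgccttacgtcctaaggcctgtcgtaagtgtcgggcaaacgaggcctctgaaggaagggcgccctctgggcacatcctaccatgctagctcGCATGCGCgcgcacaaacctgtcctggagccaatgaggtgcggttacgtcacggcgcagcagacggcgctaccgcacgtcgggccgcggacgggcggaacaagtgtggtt
Ndufs3: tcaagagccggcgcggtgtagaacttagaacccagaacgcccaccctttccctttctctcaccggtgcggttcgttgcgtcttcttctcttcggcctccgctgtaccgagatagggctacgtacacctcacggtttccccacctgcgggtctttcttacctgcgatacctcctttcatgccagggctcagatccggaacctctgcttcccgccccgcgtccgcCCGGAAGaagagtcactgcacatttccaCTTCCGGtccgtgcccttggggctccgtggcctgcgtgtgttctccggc
Ndufs7: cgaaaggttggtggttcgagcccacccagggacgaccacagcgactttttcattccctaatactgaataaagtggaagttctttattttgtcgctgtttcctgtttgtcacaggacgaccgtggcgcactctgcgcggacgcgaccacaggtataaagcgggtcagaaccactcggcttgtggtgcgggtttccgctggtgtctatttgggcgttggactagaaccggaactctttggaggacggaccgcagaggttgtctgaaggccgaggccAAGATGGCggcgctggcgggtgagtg
Cox7a2: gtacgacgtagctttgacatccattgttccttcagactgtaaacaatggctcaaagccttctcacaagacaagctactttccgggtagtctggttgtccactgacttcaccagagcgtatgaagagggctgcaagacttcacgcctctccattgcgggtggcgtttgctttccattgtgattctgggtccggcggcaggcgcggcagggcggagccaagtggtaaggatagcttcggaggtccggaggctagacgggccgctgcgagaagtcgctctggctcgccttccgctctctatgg
Cox7a1: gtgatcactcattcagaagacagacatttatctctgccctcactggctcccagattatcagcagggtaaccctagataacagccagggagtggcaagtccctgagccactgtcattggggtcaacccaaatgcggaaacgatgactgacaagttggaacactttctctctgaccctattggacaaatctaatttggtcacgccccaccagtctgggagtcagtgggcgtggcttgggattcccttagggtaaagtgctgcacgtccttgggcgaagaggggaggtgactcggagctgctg

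Of the 24159 probes shared by both array versions, 8360 to 10929 were detected per array at a detection p under 0.05. Runs were inferred from the first part of each array's name in the intensity values. By these names the 10 eosinophil arrays were 1 run on version 1.1, and the EoP and all WT arrays lay in another on version 2.0. The IL5T CMP and GMP were split between versions. The version effect was estimated from the IL5T CMP and GMP, and a shift of the eosinophil run alone cannot be told apart from the eosinophils themselves. The 3 Y-linked genes checked were not detected on the 10 eosinophil arrays, while 2 of them were detected in every progenitor group, so sex also differs in part. EoH BM is grouped by its title and cell type, although its antibody label reads medium for Siglec-F. By correlation, 31 of the 32 arrays were closest to their own group. The exception was WT CMP replicate 3, at 0.803 with the IL5T CMP and 0.783 with its own group. Levels below are normalized log2 intensities with the version effect removed. They compare arrays for 1 probe and never 1 gene with another.

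Of the members, 58 were detected on all 32 arrays and 6 on none (Cox7b2, Cox8b, Cox8c, Ndufaf6, Ndufs1 and Uqcrq). The median level of the subunits was lower on the eosinophil arrays, which were all in 1 run, than on the progenitor arrays. For each array the median over the 70 subunits was taken, after the mean of the 9 groups had been subtracted from each gene. In IL5T mice this median was 0.13 ± 0.03 in CMP (SD, n = 5), 0.32 ± 0.11 in GMP (n = 5) and 0.32 ± 0.07 in EoP (n = 3). It was -0.43 ± 0.0040 in EoM BM (n = 3), -0.62 ± 0.06 in EoH BM (n = 4) and -0.56 ± 0.04 in EoH PB (n = 3). All 10 eosinophil arrays lay below all 22 progenitor arrays. In WT mice it was 0.18 ± 0.14 in CMP, 0.40 ± 0.04 in GMP and 0.14 ± 0.03 in EoP (n = 3 each). Among the 65 subunits detected on 3 or more arrays, 22 had their highest group mean in IL5T EoP and 21 in WT GMP. The lowest group mean was in EoH BM for 28 of them, in EoH PB for 19 and in EoM BM for 8.

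**Figure D1:**
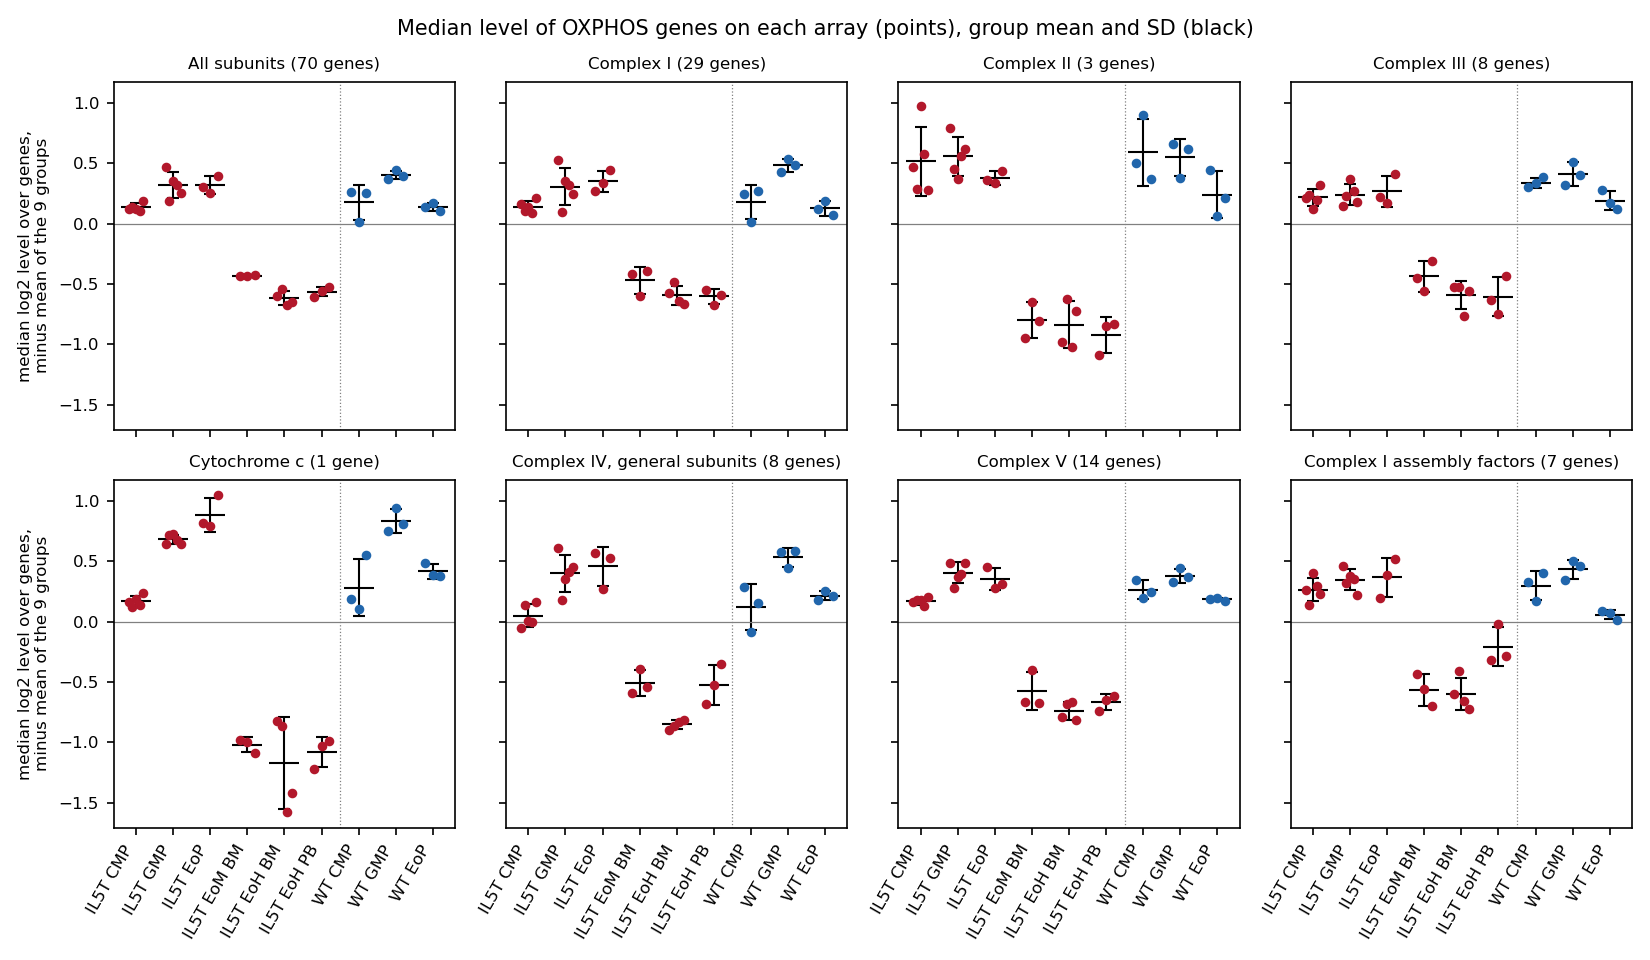
Median log2 level over the genes of each complex, minus the mean of the 9 groups, for each array (points), with group mean and SD in black, IL5T in red and WT in blue. In every panel the eosinophil arrays sit below the progenitor arrays, and in the cytochrome c panel they range from -1.58 to -0.82.

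The question of how the OXPHOS genes change as a committed progenitor becomes an eosinophil was addressed by EoM BM against EoP, both from IL5T mice. In EoM BM 50 of the 77 members fell and 3 rose at an adjusted p under 0.05 (limma, Benjamini-Hochberg over all probes). Over all 24159 probes, 15.1% were lower and 13.8% higher. The median log2 fold change was -0.84 over the members and 0.02 over all probes. Restricted to probes detected on 3 or more arrays, the background was 27.5% lower and 24.2% higher, and all 53 calls were among the 71 members that passed this filter. Arrays did not overlap for 54 members that were lower and 6 that were higher in EoM BM, against 21.7% and 23.9% of all probes. When each array was only divided by its median (median scaling) and not quantile normalized, 55 members fell and 1 rose, with a member median of -1.27, against 20.4% lower and 10.6% higher over all probes. Because the groups lie on different versions, EoM BM was also set against the 3 IL5T GMP arrays of version 1.1 within a fit of the 16 version 1.1 arrays, a comparison chosen after the data were seen. There 49 members fell and 3 rose, with a median of -0.79, against 17.2% lower and 14.3% higher over all probes. It uses the same EoM BM arrays, and the IL5T GMP arrays also helped to estimate the version effect of the main fit. The comparisons are thus not independent, and 47 members fell in both. These GMP arrays lie in another run than the EoM BM arrays, so a shift of the eosinophil run cannot be told apart here either.

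**Figure D2:**
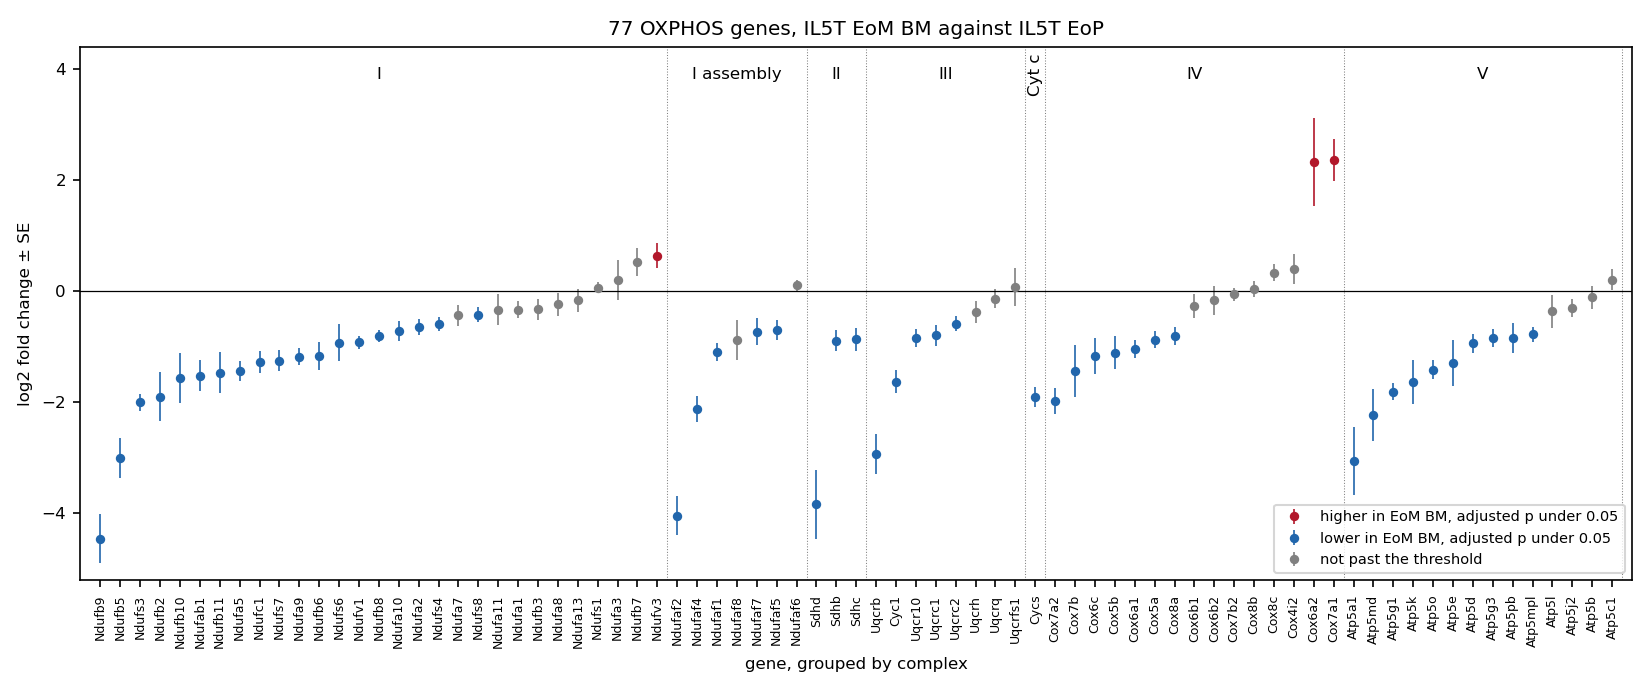
Log2 fold change of EoM BM against EoP (IL5T mice) for each of the 77 members, grouped by complex, with bars for the standard error. Blue points fell and red points rose at an adjusted p under 0.05. Falls reach -4.45 at Ndufb9, and the highest points are Cox7a1 and Cox6a2 at 2.37 and 2.33.

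In complex I, 19 of 29 subunits fell and 1 rose, with a median of -0.80. Of the 5 core subunits, which carry the flavin and iron-sulfur clusters or hold them in place, 4 fell. Ndufs3, a core subunit of the peripheral arm named here after its values were seen, had 10.03, 10.11 and 10.23 on the EoM BM arrays, against 12.31, 12.12 and 11.95 on the EoP arrays. The groups were well apart, and Ndufs3 fell by 2.00 ± 0.16 on the log2 scale (SE, adjusted p = 2.46e-10). Ndufv1, the flavin-bearing subunit that oxidizes NADH, had 12.10, 11.77 and 11.86 in EoM BM, against 12.75, 12.84 and 12.88 in EoP. It fell by 0.92 ± 0.12 (adjusted p = 8.02e-07). Ndufs7, which carries the last iron-sulfur cluster before ubiquinone, fell by 1.25 ± 0.19 (adjusted p = 6.93e-06). Ndufs1, the largest core subunit, was not detected on any array and has no level here.

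Accessory subunits of complex I, which surround the core, showed the widest spread, as 15 of 24 fell and 1 rose. Ndufb9, in the membrane arm, was not detected on any eosinophil array and stood at 5.30, 5.65 and 5.64 in EoM BM, against 10.34, 10.47 and 9.15 in EoP. By an approximate bound Ndufb9 was at least 17.5-fold lower in EoM BM (adjusted p = 8.61e-09). This bound sets the EoP mean, with the version effect removed, against the lowest signal detected on each EoM BM array, without that removal. It thus depends on the estimated version effect. Ndufb5, also of the membrane arm, was detected on all arrays of both groups, at 7.30, 8.00 and 7.23 in EoM BM, against 10.74, 10.88 and 9.94 in EoP. It fell by 3.01 ± 0.36 (adjusted p = 1.87e-07). Ndufv3, which sits beside the NADH-oxidizing site, went the other way with 13.77, 13.81 and 13.87 in EoM BM, against 12.93, 13.30 and 13.29 in EoP. Its rise of 0.64 ± 0.23 (adjusted p = 0.0346) was lost under median scaling (0.13, adjusted p = 0.76) and without EoM BM replicate 2 or 3 or EoP replicate 1, where p was at most 0.124. A further probe of Ndufv3 gave 0.03 ± 0.27 (adjusted p = 0.961). The other 8 accessory subunits were not called, among them Ndufa3 (0.20 ± 0.37) and Ndufb7 (0.53 ± 0.26).

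All 3 subunits of complex II fell. Sdhd, a membrane anchor, had 6.02, 7.08 and 5.67 in EoM BM and was detected on 2 of these 3 arrays, against 10.72, 10.49 and 9.05 in EoP. It fell by 3.84 ± 0.62 (adjusted p = 1.8e-05), with EoP replicate 3 lower than the other EoP arrays, and was also called without that array. Sdhb, the iron-sulfur subunit, had 9.91, 10.21 and 10.06 in EoM BM, against 11.17, 10.63 and 11.05 in EoP, and fell by 0.89 ± 0.19 (adjusted p = 0.000751). Sdhc, the other anchor, fell by 0.86 ± 0.21 (adjusted p = 0.00172).

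In complex III, 5 of 8 subunits fell and none rose, with a median of -0.69. Uqcrb, a subunit near the ubiquinone site, had 8.13, 8.82 and 8.37 in EoM BM, against 11.55, 11.79 and 10.77 in EoP, and fell by 2.93 ± 0.36 (adjusted p = 2.84e-07). Cyc1, the cytochrome that hands electrons to cytochrome c, had 10.22, 10.24 and 10.54 in EoM BM, against 11.97, 11.81 and 12.09 in EoP. It fell by 1.62 ± 0.21 (adjusted p = 5.75e-07). Uqcrc1, a core protein without a redox group, fell by 0.79 ± 0.19 (adjusted p = 0.00146). Uqcrfs1, the Rieske iron-sulfur protein, was detected on 1 EoM BM array and on no EoP array, and its value of 0.08 ± 0.34 (adjusted p = 0.918) is therefore not informative.

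Cycs, the somatic cytochrome c that carries electrons to complex IV and also triggers caspase activation when released, had 11.14, 11.13 and 11.03 in EoM BM, against 12.94, 12.92 and 13.17 in EoP. The replicates of each group lay close together. Cycs fell by 1.91 ± 0.18 (adjusted p = 4.09e-09), and by 1.72 ± 0.16 against the version 1.1 GMP arrays (adjusted p = 1.9e-06).

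**Figure D3:**
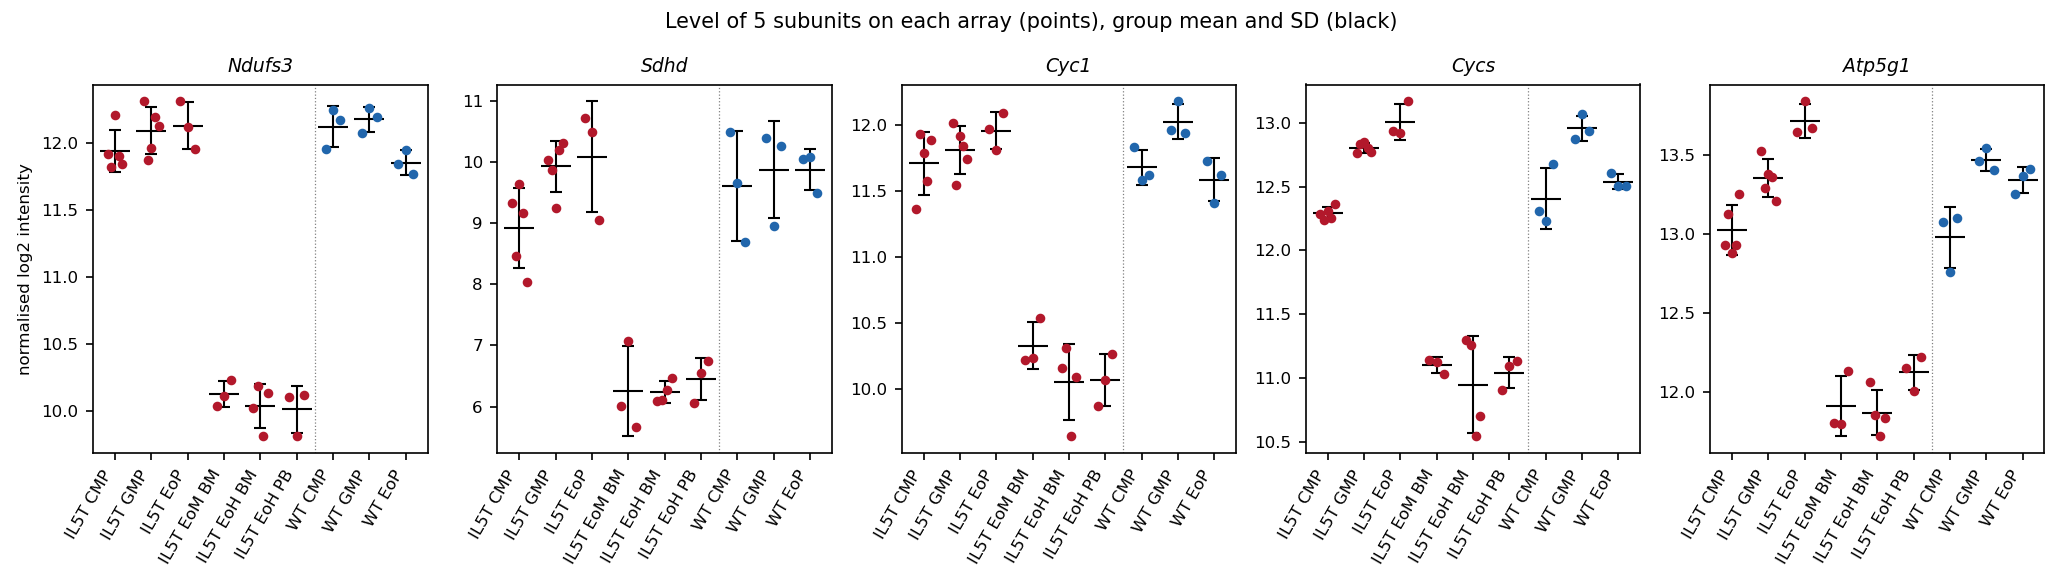
Normalized log2 intensity of Ndufs3, Sdhd, Cyc1, Cycs and Atp5g1 on each array (points), with group mean and SD in black, IL5T in red and WT in blue. The axes differ between panels and do not start at 0. For Cycs the eosinophil arrays lie from 10.55 to 11.30 and the progenitor arrays from 12.23 to 13.17.

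For complex IV the general subunits and the tissue isoforms are described apart. Of 8 general subunits, 7 fell and none rose, with a median of -1.07. Of 7 isoforms known from muscle, lung or testis, none fell and 2 rose. Cox7b2, Cox8b and Cox8c were detected on no array and Cox6b2 on 4, so the absence of falls says little about these genes. Of the 2 rises, only that of Cox7a1 was also called under median scaling. Cox7a2, the general form of subunit VIIa, had 8.41, 8.51 and 8.17 in EoM BM, against 10.59, 10.42 and 10.01 in EoP, and fell by 1.98 ± 0.23 (adjusted p = 1.61e-07). Cox7a1, the heart and skeletal muscle form of the same subunit, had 10.28, 10.27 and 10.66 in EoM BM, against 7.53, 8.04 and 8.54 in EoP. It rose by 2.37 ± 0.38 (adjusted p = 1.59e-05), by 1.47 under median scaling (adjusted p = 0.00196) and by 2.99 ± 0.21 against the version 1.1 GMP arrays (adjusted p = 1.35e-07). All 10 eosinophil arrays, from 9.53 to 10.73, were above all 22 progenitor arrays, from 6.06 to 8.54.

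Subunit VIa had the same pair of forms. Cox6a1, the general form, had 12.49, 12.73 and 12.77 in EoM BM, against 13.62, 13.63 and 13.86 in EoP, and fell by 1.04 ± 0.16 (adjusted p = 7.12e-06). Cox6a2, the muscle form, had 8.94, 7.08 and 8.33 in EoM BM, against 5.76, 4.89 and 6.72 in EoP, where it was detected on 2 of 3 arrays. It rose by 2.33 ± 0.80 (adjusted p = 0.0282), and the call was lost under median scaling (1.61, adjusted p = 0.117). It was also lost without EoM BM replicate 1 or 3 or EoP replicate 1 or 2, where the fold change was 1.88 to 2.31. Against the version 1.1 GMP arrays Cox6a2 was at 0.92 ± 0.61 (adjusted p = 0.33). The level was highest in IL5T CMP, at 9.81 ± 0.65 (SD, n = 5), so that this probe did not split eosinophils from progenitors as Cox7a1 did.

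Among the other general subunits, Cox5a, on the matrix face of the enzyme, had 12.35, 12.71 and 12.63 in EoM BM, against 13.43, 13.29 and 13.59 in EoP. It fell by 0.87 ± 0.15 (adjusted p = 4.19e-05). Cox8a fell by 0.80 ± 0.16 (adjusted p = 0.00022). Cox6b1, which bridges the monomers of the enzyme, was the only general subunit not called, at -0.26 ± 0.22 (adjusted p = 0.456), and a further probe gave -0.24 ± 0.22. Of the remaining isoforms, Cox4i2, the lung form, was at 0.40 ± 0.26 (adjusted p = 0.307) and was detected on 2 of 3 EoM BM arrays and on none of the EoP arrays. Cox6b2, a testis form, was at -0.16 ± 0.26 (adjusted p = 0.743), while Cox7b2, Cox8b and Cox8c were not detected.

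**Figure D4:**
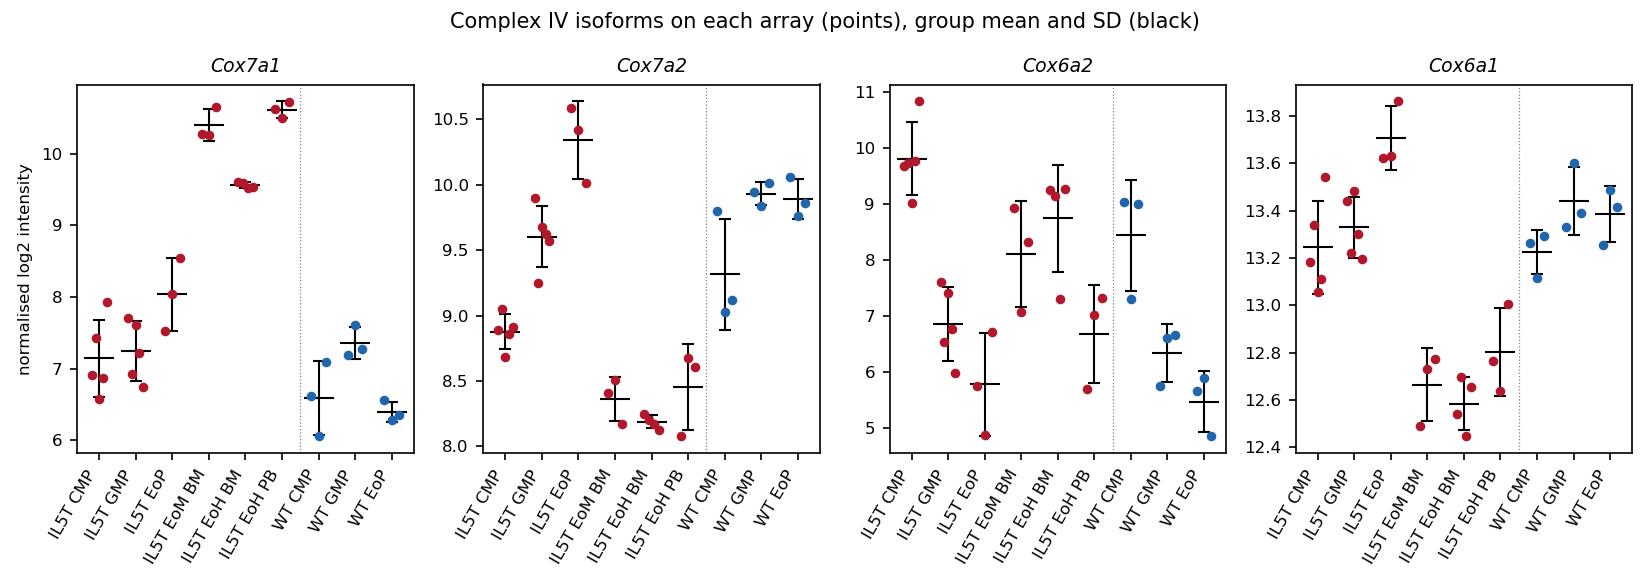
Normalized log2 intensity of the muscle forms Cox7a1 and Cox6a2 and the general forms Cox7a2 and Cox6a1 on each array (points), with group mean and SD in black, IL5T in red and WT in blue. The axes differ between panels and do not start at 0. Cox7a1 is at 9.53 or more on every eosinophil array and at 8.54 or less on every progenitor array.

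In complex V, 10 of 14 subunits fell and none rose, with a median of -0.89. The catalytic head gave unequal values. Atp5a1, its alpha subunit, had 7.71, 8.02 and 7.53 in EoM BM, against 11.48, 11.20 and 9.76 in EoP, and fell by 3.06 ± 0.61 (adjusted p = 0.000269). Atp5b, the beta subunit that holds the catalytic sites, had 14.17, 14.01 and 14.20 in EoM BM, against 14.61, 14.33 and 13.77 in EoP. Its groups overlapped, at -0.11 ± 0.21 (adjusted p = 0.786). Atp5c1, the central stalk gamma subunit, was at 0.21 ± 0.19 (adjusted p = 0.515).

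The membrane ring and stalk subunits of complex V fell in 7 of 9 cases. Atp5g1, which encodes the ring's c subunit, had 11.80, 11.80 and 12.13 in EoM BM, against 13.64, 13.84 and 13.67 in EoP, and fell by 1.81 ± 0.15 (adjusted p = 3.36e-10). Atp5g3, another gene for the same ring protein, fell by 0.84 ± 0.16 (adjusted p = 0.000159). Atp5md, a small membrane subunit of the enzyme's dimers, was not detected on the EoM BM arrays, at 5.93, 5.66 and 5.86, against 8.80, 8.40 and 6.92 in EoP. By the same approximate bound as for Ndufb9, it was at least 4.47-fold lower in EoM BM (adjusted p = 0.000549).

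The assembly factors of complex I, which help to build the enzyme and are not part of it, fell for 5 of 7 and rose for none. Ndufaf2, which joins a late assembly intermediate, had 6.79, 6.73 and 5.70 in EoM BM and was detected on 2 of these 3 arrays, against 10.64, 10.65 and 10.06 in EoP. It fell by 4.04 ± 0.35 (adjusted p = 9.54e-10). Ndufaf4, an early assembly factor, had 8.91, 8.13 and 8.57 in EoM BM, against 10.90, 10.43 and 10.65 in EoP, and fell by 2.12 ± 0.24 (adjusted p = 6.51e-08). For Ndufaf7, a methyltransferase for the core of complex I, the probe used fell by 0.73 ± 0.24 (adjusted p = 0.0216), while a dimmer probe rose by 1.13 ± 0.22 (adjusted p = 0.000172), so the gene's direction is uncertain.

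Several values moved with this comparison, and their part in it was not tested. Probes detected per array numbered 8748 to 8857 in EoM BM and 9287 to 9900 in EoP. EoP replicate 3 was lower than both other EoP arrays by more than 1 on the log2 scale for Atp5a1, Atp5e, Atp5md, Ndufb2, Ndufb9 and Sdhd, and no other EoP array was so for any member. Of 5 eosinophil markers 2 rose, with a log2 summed level of 15.7 to 15.8 in EoM BM, against 14.4 to 14.5 in EoP, and Siglecf and Ccr3 were detected in EoM BM but on no EoP array. Of 9 neutrophil granule markers 4 rose and 3 fell, with a summed level of 16.7 to 17.1 in EoM BM, against 15.0 to 15.4 in EoP. Of 5 monocyte and macrophage markers 2 rose and 1 fell, at 9.05 to 9.32 in EoM BM, against 8.59 to 9.05 in EoP. Of 6 mast cell and basophil markers 5 fell, with a summed level of 10.59 to 10.70 in EoM BM, against 13.66 to 14.04 in EoP, and Mcpt8, Mcpt4, Ms4a2 and Fcer1a were not detected in EoM BM. Of 5 erythroid markers 3 rose and 2 fell, with a summed level of 12.4 to 15.2 in EoM BM, against 9.72 to 10.0 in EoP. Of 4 B cell markers 3 rose (10.3 to 12.0 against 9.76 to 10.1) and of 4 T cell markers 3 rose (10.4 to 10.6 against 6.62 to 6.75), with Cd3e and Cd2 not detected in EoM BM. Kit, used to sort the progenitors, was at 8.46 to 8.94 in EoM BM, against 11.2 to 11.4 in EoP. In bulk samples, fewer cells of a type and less RNA per cell cannot be told apart.

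Genes that serve the OXPHOS system from outside it were described from lists in the same comparison. There 15.1% of all probes were lower and 13.8% higher. Among probes detected on 3 or more arrays 27.5% were lower and 24.2% higher. Of 28 further assembly factors, which fit metal centres or join subunits, 15 fell and 1 rose in EoM BM, with a median of -0.63. Sdhaf3, for complex II, fell by 3.11 ± 0.26 (adjusted p = 4.12e-10), and Cox11, which delivers copper to complex IV, fell by 2.87 ± 0.39 (adjusted p = 1.44e-06). Of 12 enzymes of the tricarboxylic acid cycle and pyruvate dehydrogenase 8 fell and none rose, with a median of -1.07, the largest change being Fh1 (fumarase) at -4.13 ± 0.60 (adjusted p = 3.83e-06). Of 8 carriers and channels of the mitochondrial membranes 6 fell and none rose. Of 8 genes of mitochondrial DNA maintenance 3 fell and 1 rose.

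Of 15 regulators of mitochondrial transcription and biogenesis 5 were lower and 4 higher. These counts were near the 27.5% lower and 24.2% higher among probes detected on 3 or more arrays. Ppargc1b, a coactivator of mitochondrial genes, fell by 3.24 ± 0.29 (adjusted p = 1.8e-09), and Pprc1, of the same family, fell by 2.88 ± 0.22 (adjusted p = 8.8e-11). Tfb1m, which methylates mitochondrial ribosomal RNA, fell by 2.39 ± 0.21 (adjusted p = 1.38e-09), and Tfam, which packages and transcribes mitochondrial DNA, fell by 1.77 ± 0.22 (adjusted p = 3.2e-07). Nrf1, whose motif is in the Cycs window, rose by 1.47 ± 0.15 (adjusted p = 2.62e-08). Of 31 members with a window holding any of the 3 motifs, 22 fell and none rose, with a median of -0.88. Of 31 members with a window holding none, 19 fell and 2 rose, with a median of -0.84, so the counts were near each other.

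The eosinophil stages lay in 1 run on 1 version, and fewer members were called between them than against EoP. In EoH BM against EoM BM 5 members fell and 1 rose, against 4.75% lower and 3.69% higher over all probes, with a member median of -0.12. Among probes detected on 3 or more arrays 8.37% were lower and 6.62% higher. Of the 71 members that passed this filter 5 fell and 1 rose, not above this share. Arrays did not overlap for 17 members that were lower and 2 that were higher in EoH BM, against 8.28% and 6.79% of all probes. Cox5a had 12.05, 12.13, 11.78 and 12.09 in EoH BM, against 12.35, 12.71 and 12.63 in EoM BM, with no overlap. It fell by 0.55 ± 0.11 (adjusted p = 0.0014). Ndufv3 had 13.28, 13.16, 12.84 and 13.11 in EoH BM, against 13.77, 13.81 and 13.87 in EoM BM, and fell by 0.72 ± 0.17 (adjusted p = 0.00579). Ndufs4, an accessory subunit of the peripheral arm, fell by 0.43 ± 0.10 (adjusted p = 0.00457), and the small membrane subunit Ndufa1 by 0.40 ± 0.12 (adjusted p = 0.03). Ndufs8, a core subunit with iron-sulfur clusters, fell by 0.31 ± 0.10 (adjusted p = 0.0481) with overlapping arrays. Ndufaf2 rose, with 7.55, 7.81, 7.89 and 7.05 in EoH BM, against 6.79, 6.73 and 5.70 in EoM BM. Its fold change of 1.17 ± 0.26 (adjusted p = 0.00386) was 0.81 (adjusted p = 0.0657) without EoM BM replicate 3.

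In EoH PB against EoH BM, blood against marrow, 2 members rose and 1 fell, against 3.19% higher and 2.64% lower over all probes, with a member median of 0.04. Ndufaf4 had 9.79, 10.22 and 9.83 in EoH PB, against 9.47, 9.00, 8.61 and 8.84 in EoH BM, and rose by 0.96 ± 0.17 (adjusted p = 0.000468). Cox7a1 had 10.63, 10.49 and 10.73 in EoH PB, against 9.61, 9.59, 9.53 and 9.54 in EoH BM. Both pairs of groups were apart. Cox7a1 rose by 1.05 ± 0.28 (adjusted p = 0.0202), and the call was lost without EoH PB replicate 1 (1.04, adjusted p = 0.0535) or replicate 3 (0.99, adjusted p = 0.0819). Cox6a2 had 5.70, 7.03 and 7.33 in EoH PB, against 9.25, 9.15, 7.31 and 9.27 in EoH BM, with an overlap. It fell by 2.06 ± 0.58 (adjusted p = 0.0329), and the call was lost without EoH PB replicate 1 or 2 or EoH BM replicate 1, 2 or 4, where the fold change was -2.23 to -1.57. Under median scaling 2 members rose and none fell, against 1.42% higher and 1.76% lower over all probes.

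In EoH PB against EoM BM, the ends of the eosinophil series, 10 members fell and 3 rose, against 7.45% lower and 7.49% higher over all probes, with a member median of -0.09. Restricted to probes detected on 3 or more arrays, the background was 13.3% lower and 12.9% higher. Of the 71 members that passed this filter 9 fell and 3 rose, so the falls were near this share and the rises below it. The 10 that fell were all subunits, of which Cox8c was not detected on any array. The 3 that rose were all complex I assembly factors. Complex I held 6 of the falls, with 13.13, 12.89 and 13.25 for Ndufv3 in EoH PB, against 13.77, 13.81 and 13.87 in EoM BM (-0.72 ± 0.18, adjusted p = 0.00491). Ndufaf4 had 9.79, 10.22 and 9.83 in EoH PB, against 8.91, 8.13 and 8.57 in EoM BM, and rose by 1.41 ± 0.18 (adjusted p = 2.51e-06). Ndufaf2 had 7.78, 8.08 and 7.84 in EoH PB, against 6.79, 6.73 and 5.70 in EoM BM, and rose by 1.49 ± 0.27 (adjusted p = 0.000253). Neither pair of groups overlapped. Ndufaf5, a modifier of the core subunit Ndufs7, rose by 0.48 ± 0.14 (adjusted p = 0.0227). The count of 13 was 8 without EoM BM replicate 2, 8 without EoM BM replicate 3 and 3 in a fit of the eosinophil run alone. Median scaling gave 7 falls and 2 rises, against 5.35% lower and 4.32% higher over all probes.

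Markers of other cells moved with blood and were not tested for their part in these results. The summed erythroid markers were at 9.32 to 13.4 in EoH PB, against 14.8 to 15.5 in EoH BM, and 3 of 5 fell. The neutrophil granule markers were at 13.3 to 15.1 in EoH PB, against 15.2 to 16.8 in EoH BM, and 4 of 9 fell. The monocyte and macrophage markers were at 11.6 to 11.9 in EoH PB, against 9.82 to 10.7 in EoH BM, and 3 of 5 rose. Of 4 T cell markers 2 rose and 1 fell (10.4 to 10.9 against 8.34 to 9.36). Of 4 B cell markers 2 rose and 2 fell (11.9 to 12.6 against 10.5 to 12.6). The eosinophil markers were at 13.8 to 15.1 in EoH PB, against 15.2 to 15.7 in EoH BM, and 2 of 5 fell. Of 6 mast cell and basophil markers 1 fell.

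Among IL5T progenitors, 9 members rose and 1 fell in GMP against CMP, against 4.49% higher and 6.19% lower over all probes, with a member median of 0.15. Cycs had a lowest level of 12.76, a median of 12.80 and a highest of 12.85 in GMP, against 12.24, 12.29 and 12.36 in CMP, and the groups did not overlap. It rose by 0.51 ± 0.11 (adjusted p = 0.00158). Cox7a2 ranged from 9.25 to 9.90 in GMP, against 8.68 to 9.05 in CMP, and rose by 0.73 ± 0.14 (adjusted p = 0.000588). Ndufb5 rose by 0.88 ± 0.22 (adjusted p = 0.00646) and Ndufb3, also in the membrane arm, by 0.47 ± 0.12 (adjusted p = 0.00641). Cox6a2 fell, with 7.62, 6.55, 7.42, 6.77 and 5.99 in GMP, against 9.68, 9.74, 9.03, 9.77 and 10.84 in CMP, which did not overlap, with a change of -2.94 ± 0.48 on the log2 scale (limma, adjusted p = 7.85e-05). The count of 10 was 6 without GMP replicate 1, 3 in the version 1.1 run alone and 1 in the version 2.0 run alone. Monocyte and macrophage markers were at 12.4 to 12.7 in GMP, against 10.9 to 12.1 in CMP, and 3 of 5 rose, while 2 of 5 erythroid markers fell and 2 of 6 mast cell and basophil markers rose. Their part was not tested.

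In EoP against GMP of IL5T mice, 1 member rose and none fell, against 4.77% higher and 4.54% lower over all probes, with a member median of 0.06. At an unadjusted p under 0.05, 8 rose and 3 fell, against 9.95% higher and 9.09% lower over all probes. Cox7a2 had 10.59, 10.42 and 10.01 in EoP, against 9.90, 9.25, 9.68, 9.63 and 9.57 in GMP, without overlap, and rose by 0.74 ± 0.18 (adjusted p = 0.00879). Without EoP replicate 1 it was at 0.61 (adjusted p = 0.0599). The count of 1 was 2 without GMP replicate 1, EoP replicate 1 or EoP replicate 3, and 3 without GMP replicate 3. Eosinophil markers were at 14.4 to 14.5 in EoP, against 13.7 to 15.2 in GMP, and 1 of 5 rose. Mast cell and basophil markers were at 13.66 to 14.04 in EoP, against 12.2 to 12.7 in GMP, and 3 of 6 rose. Monocyte and macrophage markers were at 8.59 to 9.05 in EoP, against 12.4 to 12.7 in GMP, and 3 of 5 fell. The part of these markers was not tested.

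WT progenitors gave the same steps without the transgene. In GMP against CMP 5 members rose and 1 fell, against 4.24% higher and 4.91% lower over all probes, with a member median of 0.20. Among probes detected on 3 or more arrays 7.49% were higher and 8.57% lower, so the counts of called members were not above this share. At an unadjusted p under 0.05 (limma), 22 rose and 1 fell, against 9.26% higher and 9.15% lower over all probes. Arrays did not overlap for 19 members that were higher and 2 that were lower in GMP, against 11.1% and 11.0% of all probes. Cycs had 12.88, 13.07 and 12.93 in GMP, against 12.31, 12.23 and 12.68 in CMP. Its arrays did not overlap. It rose by 0.55 ± 0.14 (adjusted p = 0.0103), and the call was lost without CMP replicate 1 or 2 or GMP replicate 2, where p was at most 0.0644. Atp5g1 had 13.46, 13.54 and 13.40 in GMP, against 13.07, 12.75 and 13.10 in CMP. It rose by 0.49 ± 0.12 (adjusted p = 0.00524) and was at 0.38 without CMP replicate 2 (adjusted p = 0.051). Of the other 4 calls, Cox6a2 fell by 2.10 ± 0.62 (adjusted p = 0.0312), and Cox7b2 was not detected on any array. Under median scaling 29 members rose and 1 fell, with a median of 0.61, against 7.2% higher and 4.74% lower over all probes. The count of 6 was 2 without CMP replicate 2 or GMP replicate 2 and 3 without GMP replicate 1 or 3. Monocyte and macrophage markers were at 11.9 to 12.2 in GMP, against 10.1 to 11.0 in CMP, and 3 of 5 rose, while 3 of 5 erythroid markers fell. The part of these markers was not tested.

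In EoP against GMP of WT mice the members went down: 13 fell and 1 rose, against 4.86% lower and 4.36% higher over all probes, with a member median of -0.26. Complexes I to V each had a member among those that fell, and Cox7b2, 1 of the 3 of complex IV, was not detected on any array. Ndufa1 was the member that rose, by 0.41 ± 0.12 (adjusted p = 0.0343), and was at 0.13 under median scaling (adjusted p = 0.714). Sdhb of complex II had 10.73, 10.87 and 10.63 in EoP, against 11.53, 11.48 and 11.48 in GMP, and fell by 0.75 ± 0.15 (adjusted p = 0.00147). Ndufa9, an accessory subunit near the ubiquinone site, fell by 0.48 ± 0.12 (adjusted p = 0.00937). Ndufaf5 had 8.34, 8.47 and 8.36 in EoP, against 9.21, 9.34 and 9.30 in GMP, and fell by 0.89 ± 0.14 (adjusted p = 9.79e-05). None of these groups overlapped. These 3 calls, of the 14, were the only ones that held whichever of the 6 arrays was left out. Thus no call in complex III, IV or V held through this. Arrays did not overlap for 36 members that were lower and 2 that were higher in EoP, against 15.4% and 12.5% of all probes. Under median scaling 43 members fell and none rose, against 12.5% lower and 3.81% higher over all probes. The count of 14 was 9 without EoP replicate 1 or 2 or GMP replicate 3, 7 without GMP replicate 1, 6 without GMP replicate 2 and 4 without EoP replicate 3. Mast cell and basophil markers moved with the step, as 4 of 6 rose, with a summed level of 14.68 in EoP, against 12.7 to 12.9 in GMP. Eosinophil markers were at 14.4 to 14.6 in EoP, against 10.5 to 12.6 in GMP, and 2 of 5 rose, while monocyte and macrophage markers were at 9.05 to 9.77 in EoP, against 11.9 to 12.2 in GMP, and 2 of 5 fell. The part of these lists was not tested.

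The effect of constitutive IL-5 on the progenitors was addressed by IL5T against WT cells of each kind. In EoP 9 members rose and none fell, against 3.75% higher and 3.55% lower over all probes, with a member median of 0.25. At an unadjusted p under 0.05, 23 rose and none fell, against 10.1% higher and 8.84% lower over all probes. Arrays did not overlap for 30 members, all higher in IL5T EoP, against 12.5% of all probes. Cox7a1 had 7.53, 8.04 and 8.54 in IL5T EoP, against 6.56, 6.29 and 6.35 in WT EoP, and rose by 1.64 ± 0.30 (adjusted p = 0.000753). Atp5k, the e subunit that helps ATP synthase to form dimers, had 8.67, 8.56 and 8.42 in IL5T EoP, against 7.53, 7.07 and 7.14 in WT EoP, and rose by 1.31 ± 0.31 (adjusted p = 0.00912). Ndufaf5 had 8.97, 8.94 and 9.35 in IL5T EoP, against 8.34, 8.47 and 8.36 in WT EoP, and rose by 0.70 ± 0.14 (adjusted p = 0.00263). These 3 genes did not overlap between genotypes, and their calls held whichever of the 6 arrays was left out.

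The other 6 members that rose in IL5T EoP changed less. Cycs had 12.94, 12.92 and 13.17 in IL5T EoP, against 12.61, 12.51 and 12.50 in WT EoP, again without overlap. It rose by 0.47 ± 0.14 (adjusted p = 0.041), and the call was lost whichever of the 6 arrays was left out (fold change 0.39 to 0.51, adjusted p up to 0.168). Ndufa5, an accessory subunit of the peripheral arm, rose by 0.55 ± 0.14 (adjusted p = 0.0157), and its call was lost without IL5T EoP replicate 3 or WT EoP replicate 1 or 3. Ndufc1, Ndufaf1, Atp5g1 and Ndufb8 rose by 0.54, 0.47, 0.37 and 0.30. The count of 9 was 5 without IL5T EoP replicate 2 or 3, 4 without WT EoP replicate 2, and 3 without WT EoP replicate 1 or 3. Under median scaling 14 members rose and none fell, against 3.78% higher and 3.32% lower over all probes, and with no term for the version 4 rose. Kit was at 11.2 to 11.4 in IL5T EoP, against 12.2 to 12.5 in WT EoP, and mast cell and basophil markers summed to 13.66 to 14.04 in IL5T EoP, against 14.68 in WT EoP, and their part in the result was not tested.

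In GMP no member rose or fell between IL5T and WT, against 0.0579% higher and 0.0166% lower over all probes, with a member median of -0.07. In CMP none did either, against 0.344% higher and 0.348% lower, with a member median of -0.05. At an unadjusted p under 0.05, 1 rose and 1 fell in GMP, against 2.21% higher and 2.56% lower over all probes, and 1 rose and 3 fell in CMP, against 3.5% and 3.39% (limma). Whether the effect of the transgene in EoP differed from that in GMP was tested as an interaction. Of the members 2 were higher and none lower, against 1.8% higher and 1.46% lower over all probes, with a member median of 0.33. Among probes detected on 3 or more arrays 3.07% were higher and 2.61% lower, so the count of 2 was near the share. At an unadjusted p under 0.05 (limma), 21 were higher and none lower, against 8.22% higher and 6.61% lower over all probes. Cox7a1 differed by 1.75 ± 0.42 (adjusted p = 0.0195). In GMP it had 7.71, 6.93, 7.61, 7.22 and 6.75 in IL5T mice, against 7.19, 7.61 and 7.28 in WT mice, which overlap. Ndufaf5 differed by 0.85 ± 0.20 (adjusted p = 0.0199). Both calls were lost without IL5T EoP replicate 3, IL5T GMP replicate 5 or WT GMP replicate 2, and with any of these 3 arrays left out the count was 0. Without IL5T EoP replicate 1 the count was 5, and under median scaling 22 members were higher and none lower, against 4.97% higher and 1.25% lower over all probes. Eosinophil markers were at 13.7 to 15.2 in IL5T GMP, against 10.5 to 12.6 in WT GMP, and 1 of 5 rose. In CMP they were at 11.3 to 13.9 in IL5T mice, against 8.15 to 12.7 in WT mice, and 1 of 5 rose. Their part in these results was not tested.

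**Figure D5:**
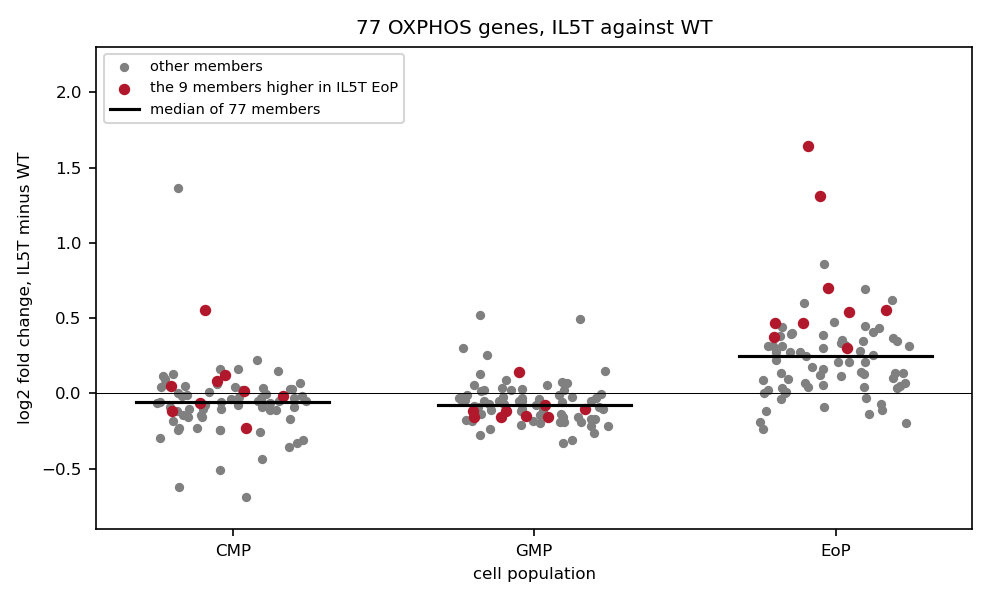
Log2 fold change of IL5T against WT for each of the 77 members in CMP, GMP and EoP, with the 9 members that rose in EoP in red in all 3 columns and a black bar at the median of the members. The medians are -0.05 in CMP, -0.07 in GMP and 0.25 in EoP.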

How the data were processed

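RNA of sorted bone marrow and blood cells was hybridized to Illumina MouseWG-6 beadchips, 16 arrays each of versions 1.1 and 2.0. The first part of the array names gave 3 groups, which were taken as runs. The deposited intensity values are raw probe intensities, each with a deposited detection p-value from the scanner software. The deposited log2 values were background corrected (normexp) and quantile normalized over both versions by the authors. Here the log2 values were recomputed from intensity with limma 3.58.1 in R 4.3.3: normexp with inferred negative controls (offset 16, per version) and quantile normalization over 24159 probes. They differed from the deposited log2 values by at most 0.163. A linear model with group and version (lmFit, eBayes, 22 residual degrees of freedom) was fitted to all 32 arrays, with Benjamini-Hochberg adjustment over all probes and a threshold of 0.05. The fit was tested on simulated data. Each array holds a pool of mice by the methods, and p-values measure the spread between pools. The number of arrays limits the precision.

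The members and lists were chosen with earlier results of these data known. Named are, per complex, up to 2 called members with the largest change in each direction, called members that moved against the rest of their complex, isoform pairs, and core subunits measured here. Of the context lists, up to 3 genes with the largest changes are named. Ndufs3, Ndufs7, Ndufs8, Ndufa9, Ndufa1, Ndufs4, Ndufa3, Ndufb7, Ndufb3, Sdhc, Cox8a, Atp5c1, Atp5g3, Nrf1 and Tfam, where they fall outside this rule, were chosen after their values were seen. Markers of eosinophils, neutrophil granules, erythroid cells, mast cells and basophils, monocytes, T cells and B cells were summed on the linear scale. Alternatives were the deposited log2 values, an offset of 50, no background correction, median scaling, only probes detected on 3 or more arrays, no version term, array weights, single runs, a replicate block, run as a block, every probe of a gene, a minimum change of 0.5 and each array left out. Promoters were searched with Python 3.11.15.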

Additional observations from a re-analysis of the deposited data

Results flagged for a closer look

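Samples far from the others of their group were sought in 90 checks, each of 1 gene or complex level in 1 group of 4 or 5 arrays. Chance flags about 1 in 20 such checks, and they share the same arrays. The search found 3, all in IL5T EoH BM. The complex III level of replicate 3 was -0.76, while the other 3 arrays lay between -0.56 and -0.52. Cox6a2 was at 7.31 on replicate 3 and between 9.15 and 9.27 on the others. Cox6b2 was at 5.51 on replicate 4 and between 4.84 and 4.94 on the others, and it was not detected on any of the 4. Replicate 3 was the lowest EoH BM array for 49 of the 77 members.

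The effect of the transgene differed between EoP and GMP for Cox7a1 by 1.75 and for Ndufaf5 by 0.85 on the log2 scale, by the interaction term. A count of 2 calls was near the share over probes detected on 3 or more arrays, 3.07% higher. Both calls were lost without IL5T EoP replicate 3, IL5T GMP replicate 5 or WT GMP replicate 2.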

How the results depend on the processing

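No called value read from the probe used changed direction under the alternatives that were run, while a further probe of Ndufaf7 rose in EoM BM against EoP where the probe used fell. The member median changed sign only where it was near 0, in EoH PB against EoH BM (-0.0048 to 0.08) and in IL5T against WT CMP (-0.14 to 0.00079). Of the 53 members called in EoM BM against EoP, 45 were called whichever array of either group was left out, 51 under median scaling, 44 without the version term and 42 with run as a random block in place of it (correlation 0.25). Beside the version term a random block for run changed 0 calls, since group and version fix the run. The counts of called members in IL5T against WT GMP and CMP were 0 under every alternative. No other cells were in the eosinophil run, so that a shift of that run cannot be told apart from the cells. Dim probes such as Ndufb9 and Atp5md carry only approximate bounds, which depend on the estimated version effect.

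Median scaling gave 2 called members in IL5T EoP against GMP (1 in the fit reported), 43 in WT EoP against GMP (14), 30 in WT GMP against CMP (6), 14 in IL5T against WT EoP (9) and 22 for the interaction (2). Without the version term the counts were 3 in EoH BM against EoM BM (6), 7 in IL5T EoP against GMP, 6 in IL5T GMP against CMP (10), 8 in WT EoP against GMP and 4 in IL5T against WT EoP. With a minimum change of 0.5 they were 3 in EoH BM against EoM BM, 5 in EoH PB against EoM BM (13), 6 in IL5T GMP against CMP, 4 in WT EoP against GMP, 3 in WT GMP against CMP and 5 in IL5T against WT EoP. Fits of single runs gave 1 in EoH PB against EoH BM (3), 3 in EoH PB against EoM BM, 3 and 1 in IL5T GMP against CMP, 1 in WT GMP against CMP and 9 for the interaction. Array weights gave 22 in IL5T GMP against CMP and 4 for the interaction. In IL5T EoP against GMP the count was 2 with the deposited log2 values, an offset of 50, no background correction or detected probes only, and 3 with run as a random block. Apart from the fewer arrays of single runs and the size limit, the cause was not tested.

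With the replicate number as a block the counts were 32 in EoM BM against EoP, 1 in EoH PB against EoH BM, 0 in IL5T EoP against GMP, 3 in WT GMP against CMP and 0 for the interaction. In no comparison did every pair of same-numbered arrays have deviations correlated at over 0.1, the level taken here as pairing (lowest r from -0.59 to 0.06), and the numbers were not treated as pairs. The pairs were all above 0 in EoM BM against EoP (0.02 to 0.17), WT EoP against GMP and IL5T against WT EoP (0.06 to 0.16). In WT EoP against GMP all 3 pairs correlated best with their own number, at 0.05 to 0.08.

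With each array left out in turn, counts ranged over 48 to 54 in EoM BM against EoP, 4 to 9 in EoH BM against EoM BM, 2 to 4 in EoH PB against EoH BM and 8 to 13 in EoH PB against EoM BM. They ranged over 1 to 3 in IL5T EoP against GMP, 6 to 12 in IL5T GMP against CMP, 4 to 9 in WT EoP against GMP and 2 to 8 in WT GMP against CMP. In IL5T against WT EoP the range was 3 to 9, and for the interaction 0 to 5. Over single named genes, leaving out an array lost 133 calls, gained 3 and left 1050 results on their side of the threshold.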
